A study of Mus musculus with 32 samples.

Results

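Bnip3 encodes a protein of the outer mitochondrial membrane that is related to the BCL2 family. Its transcription is a textbook response to low oxygen, driven by the hypoxia-inducible factor HIF-1, and the protein binds the autophagosome proteins of the LC3 family so that damaged mitochondria are taken up and degraded, a process called mitophagy. In cultured cells it is also known for a link to cell death under hypoxia. Bnip3 was followed here as 1 clone among the 15247 rows of the array table. It was selected because the study listed it among 5 clones repressed in total RNA of cells that overexpress eIF4E, the translation initiation factor that binds the cap at the 5′ end of mRNAs.

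The cells were mouse NIH 3T3 fibroblasts. By the methods, induced cells for polysome fractionation received cycloheximide before harvest, which holds ribosomes on their mRNAs. The values used are ratios and, apart from the scanner readings of some arrays, not levels. The cell type was not checked against markers. Both lines carried tTA, the transactivator that tetracycline blocks. The line 3T3-tTA, named parental in the labels, had no eIF4E transgene, and 3T3-tTA-eIF4E made additional eIF4E once tetracycline was withdrawn. "Induced" means 5 h without tetracycline in either line, so induced 3T3-tTA cells also lost the drug. Each line had 4 arrays of total RNA, induced over uninduced (T1, T3, T5 and T7 for 3T3-tTA, T9, T11, T13 and T15 for 3T3-tTA-eIF4E), and 4 arrays of RNA pooled from the heavy polysomal fractions of induced cells over total RNA (P1, P3, P5 and P7 for 3T3-tTA-eIF4E, P9, P11, P13 and P15 for 3T3-tTA). The arrays are named after the first of their 2 GEO samples, since each of the 16 arrays was deposited as 2 samples, 1 for each of the duplicate spots of a clone. The 4 arrays of a group came from 2 RNA extractions, each hybridised with the dyes swapped, so the arrays are not 4 biological replicates. With 1 cell line per arm, the transgene and any other difference between the lines cannot be told apart.

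The labels named uninduced total RNA as the reference of P1 to P7, whereas the methods named total RNA of the same induced cells. The methods were followed, and values under the other reading are given where they matter. The eIF4E transgene was visible in total RNA. The 3 clones of Eif4e had mean log2 induced/uninduced ratios of 2.75 to 3.79 in 3T3-tTA-eIF4E and of -0.02 to 0.06 in 3T3-tTA. Over all rows, arrays of opposite dye orientation within a line correlated at a Pearson r between -0.61 and 0.14 in total RNA and between -0.42 and 0.13 for polysomal RNA once turned the same way, whereas arrays of the same orientation from different lines correlated at 0.40 to 0.62 and at 0.30 to 0.82. The orientation was taken from the labelled dyes, and each Bnip3 value below is given with its dye where it mattered.

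Bnip3 (gene ID 12176, transcript NM_009760, clone H3136C07) lies on the minus strand of chromosome 7 at chr7:138890836-138909506 in GRCm38.p6, a span of 18671 bp. The row names of the deposited table do not belong to the values beside them, so the row was found through the mean log2 ratio that the study's clone list gives for Bnip3. That value, and the one given for Bnip3 in the list of polysomal changes, matched to 6 digits in 1 and the same row. The promoter window of RefSeq (250 bases before to 50 after the start of the gene) holds the core letters of the hypoxia response element, ACGTG, and the 30 bases around it are shown because HIF-1 acts on Bnip3 through elements of this kind. The capitals mark ACGTG, and the sequence reads along the minus strand at chr7:138909596-138909625.

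Bnip3 promoter: cgcacgcgccgcACGTGccacacgctcccc

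The motif began at position -107 from the start of the gene, and since CACGTG is its own reverse complement the same letters were also found on the opposite strand, at position -108. The related core GCGTG occurred 3 times over both strands, without overlap with ACGTG. These letters are common: ACGTG was present on at least 1 strand in 19.6% and GCGTG in 32.4% of 32851 mouse promoter windows of the same length. The window is a description of the gene, and the arrays did not measure promoter activity.

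In total RNA, Bnip3 was higher in induced than in uninduced cells on all parental arrays and close to its uninduced level in 3T3-tTA-eIF4E. In bulk RNA, a change in all cells and one in some of them cannot be told apart. In 3T3-tTA the log2 induced/uninduced ratio was 0.85 on T1, 0.88 on T3, 0.42 on T5 and 0.53 on T7. In 3T3-tTA-eIF4E it was 0.06 on T9, 0.21 on T11, 0.03 on T13 and 0.19 on T15. All 8 ratios were above 0, and the lowest parental array (T5) lay above the highest array of 3T3-tTA-eIF4E (T11), so the groups did not overlap.

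**Figure D1:**
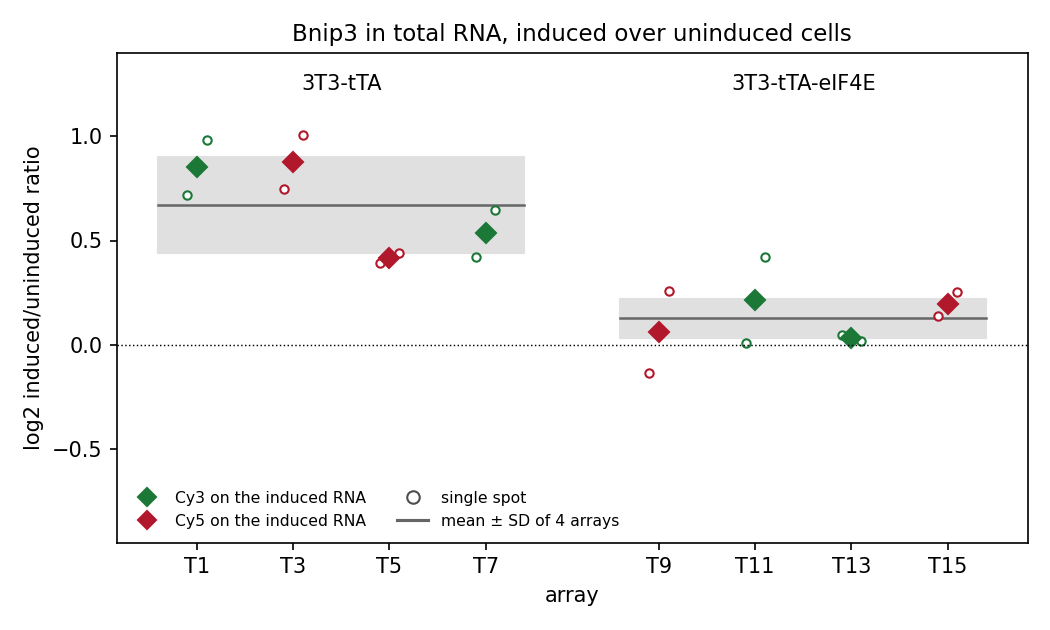
Log2 ratio of induced over uninduced total RNA for Bnip3 on each array (x axis), with diamonds for the mean of the duplicate spots, open circles for single spots, colour for the dye on the induced RNA, and a line and grey band for the mean ± SD of 4 arrays. The 3T3-tTA arrays lie between 0.42 and 0.88, all above the 3T3-tTA-eIF4E arrays, which lie between 0.03 and 0.21.

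The parental mean was 0.67 ± 0.23 (SD over 4 arrays), a 1.59-fold higher level in induced cells, and the mean of 3T3-tTA-eIF4E was 0.13 ± 0.09 (SD over 4 arrays), or 1.09-fold. The difference between the lines was -0.54 (0.686-fold). It came from the positive parental ratios, and no array of 3T3-tTA-eIF4E had Bnip3 below its uninduced level. These are the values on which Bnip3 was chosen, so they are given without a test. Over all rows, 94 (0.617%) had each 3T3-tTA-eIF4E array below each 3T3-tTA array, and since the choice of Bnip3 used this contrast nothing is read from its place among them. The row with the next lower difference was at -0.55 and the next higher at -0.53.

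The choice of Bnip3 used the parental ratio, so its place among the rows is a description only. The parental mean ranked 18 from the top among 15247 rows (99.9% of rows were lower), and on single arrays between 95.3% and 99.6% of rows were lower than Bnip3. In 3T3-tTA-eIF4E it ranked 2272, with 85.1% of rows lower. A ratio above 0 on each of the 4 arrays, as for Bnip3, was found in 8.4% of rows in 3T3-tTA and in 3.67% in 3T3-tTA-eIF4E.

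The dye made little difference to Bnip3 in total RNA. With Cy3 on the induced RNA the mean was 0.69 in 3T3-tTA and 0.12 in 3T3-tTA-eIF4E, and with Cy5 it was 0.65 and 0.13. Duplicate spots were further apart than this, with gaps of up to 0.41 on the log2 scale (T11, 0.01 and 0.42), and T9 had 1 spot below 0 (-0.13) and 1 above (0.26). When each array was left out in turn the difference stayed between -0.64 and -0.46.

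**Figure D2:**
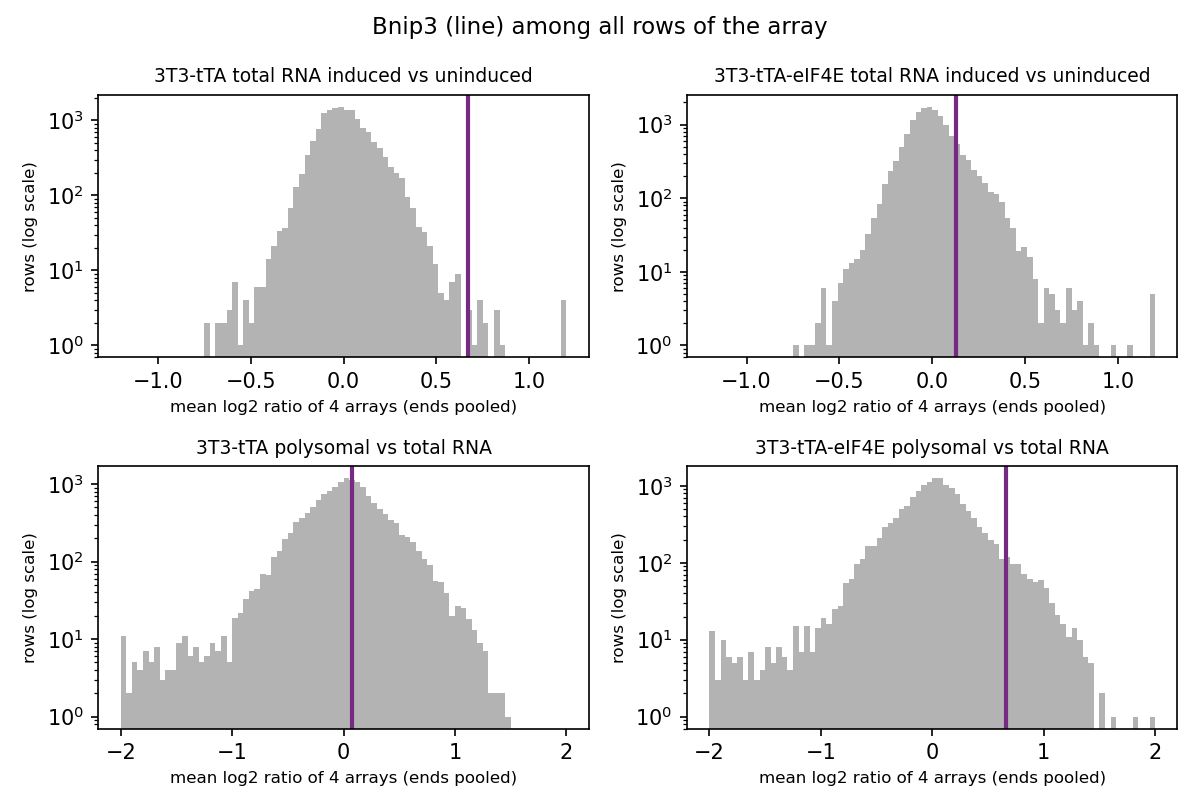
Distribution of the mean log2 ratio of 4 arrays over 15247 rows in each of the 4 conditions (grey, rows on a log scale, values beyond the axis collected in the end bins), with the mean of Bnip3 as a vertical line. Bnip3 lies at 0.67 in the upper tail for 3T3-tTA total RNA and at 0.13 within the main body for 3T3-tTA-eIF4E total RNA, while for polysomal RNA it lies at 0.07 within the main body in 3T3-tTA and at 0.66 on the upper flank in 3T3-tTA-eIF4E.

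The polysomal arrays ask how much of an mRNA sits on heavy polysomes, where several ribosomes translate it, relative to its level in the cell. They were separate hybridisations and the order of the lines was the opposite of that in total RNA. By the methods, however, induced total RNA is the upper term of the total RNA ratio and the lower term of the polysomal/total ratio. A high Bnip3 level in induced total RNA raises the first and lowers the second, so the contrasts are not independent. In 3T3-tTA-eIF4E the log2 polysomal/total ratio of Bnip3 was 0.86 on P1, 0.78 on P3, 0.36 on P5 and 0.63 on P7. In 3T3-tTA it was 0.12 on P9, -0.28 on P11, 0.40 on P13 and 0.06 on P15. Bnip3 was thus above 0 on all arrays of 3T3-tTA-eIF4E, as were 12.4% of rows, and on both sides of 0 in the parental line. On these arrays, as on those of total RNA, a ratio of 0 is the centre set by the normalisation. It does not stand for equal amounts in the compared RNAs.

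The groups overlapped by a single pair of arrays, P5 at 0.36 and P13 at 0.40, which differed in dye orientation. P5 carried Cy3 on the polysomal RNA and P13 carried Cy5, and in both lines Bnip3 read higher with Cy5. The Cy3 means were 0.49 in 3T3-tTA-eIF4E and -0.08 in 3T3-tTA, and the Cy5 means were 0.82 and 0.23. Within each orientation both arrays of 3T3-tTA-eIF4E lay above both arrays of 3T3-tTA, a pattern that 371 rows (2.43%) shared.

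**Figure D3:**
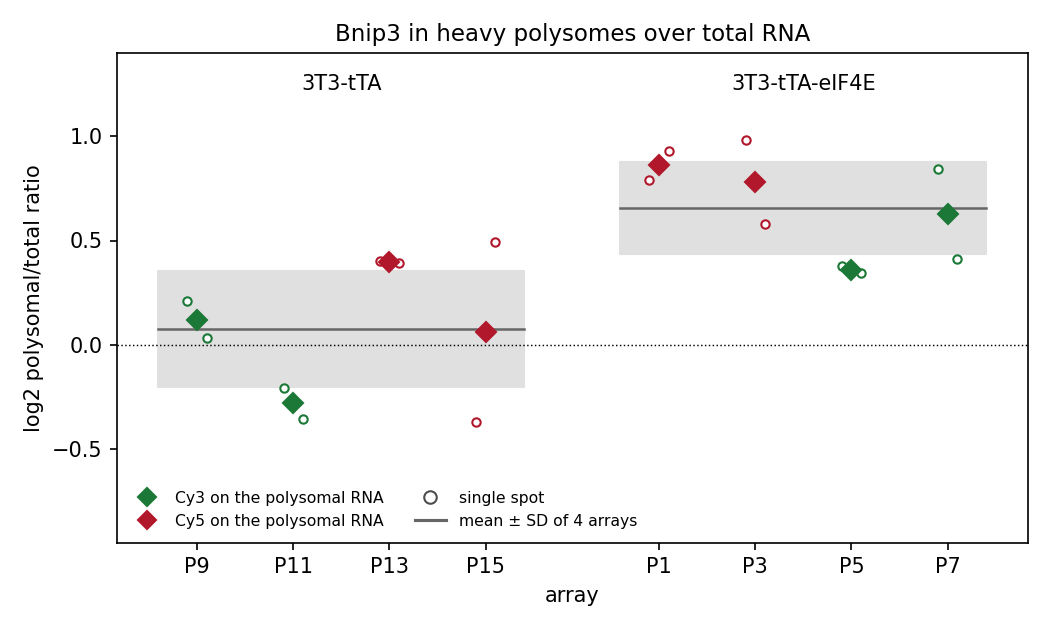
Log2 ratio of heavy polysomal over total RNA for Bnip3 on each array (x axis), with diamonds for the mean of the duplicate spots, open circles for single spots, colour for the dye on the polysomal RNA, and a line and grey band for the mean ± SD of 4 arrays. The 3T3-tTA-eIF4E arrays lie between 0.36 and 0.86 and the 3T3-tTA arrays between -0.28 and 0.40, with the lines separate within each dye.

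On average the polysomal/total ratio of 3T3-tTA-eIF4E was 0.66 ± 0.22 (SD over 4 arrays), or 1.58-fold, and that of 3T3-tTA was 0.07 ± 0.28 (SD over 4 arrays), or 1.05-fold. The difference of 0.58 on the log2 scale (1.5-fold, SE 0.234) had a 95% interval from -0.02 to 1.18 when the arrays were reduced to extraction means and fitted with limma. Its adjusted p over all 15247 rows was 1.00 (limma, Benjamini-Hochberg), so the difference did not pass the threshold of 0.1. No row passed it (0% called in either direction), and the unadjusted p of limma was under 0.05 for 150 rows, of which 52 (0.341%) were higher in 3T3-tTA-eIF4E. Bnip3 was not among these, with an unadjusted limma p of 0.0543 from the least favourable assignment of arrays to extractions. The SE and interval above are from that assignment, and under the most favourable one the unadjusted limma p was 0.0348. The p of every row was likewise the largest over 4 assignments. This is a cautious rule, and the fit rests on 2 extractions per line. The absence of called rows is therefore not read as absence of a polysomal change. The study's list of polysomal changes, drawn from the same arrays, also holds Bnip3, so this contrast is not a fresh one for the gene. The study called that list by Significance Analysis of Microarrays at a q-value below 0.1 and a 1.3-fold change. Its analysis was paired by dye and experimental set and treated duplicate spots as independent. The fit here was not paired and used extraction means. Which of these steps made the outcomes differ was not tested.

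Against a ratio of 0, the 3T3-tTA-eIF4E mean had a 95% interval of 0.23 to 1.08 and an adjusted p of 0.319 with limma, and no row was called (0%). With the 4 arrays entered as separate replicates the adjusted p of limma was 0.0292 at the same mean, although that count ignores the shared extractions. The 95% interval of the parental mean reached from -0.35 to 0.50 (limma adjusted p 0.943), and the plain mean of the other 3 parental arrays was -0.03 without P13 and 0.19 without P11. Among all rows, 95.4% were lower than Bnip3 in 3T3-tTA-eIF4E and 56.6% in 3T3-tTA. Read with uninduced total RNA as the reference of P1 to P7, as labelled, the difference was 0.46 (95% interval -0.14 to 1.06).

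Scanner readings were at hand for P3, P7, P11 and P15, and on these the Bnip3 spots were dim. They were located by their values at row 21 and columns 11 and 12 of grid 7, and the ratios recomputed from them differed from the deposited ones by at most 0.048. Cy3 pixels of the 8 spots were 1.31 to 2.13 times their local background (median 1.59) and Cy5 pixels 1.99 to 6.10 times (median 3.01). Between 29.9% and 39.4% of the spots of an array were dimmer. The pair on P15 disagreed in sign, at -0.37 and 0.49, the widest gap of the 16 arrays for this gene.

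**Figure D4:**
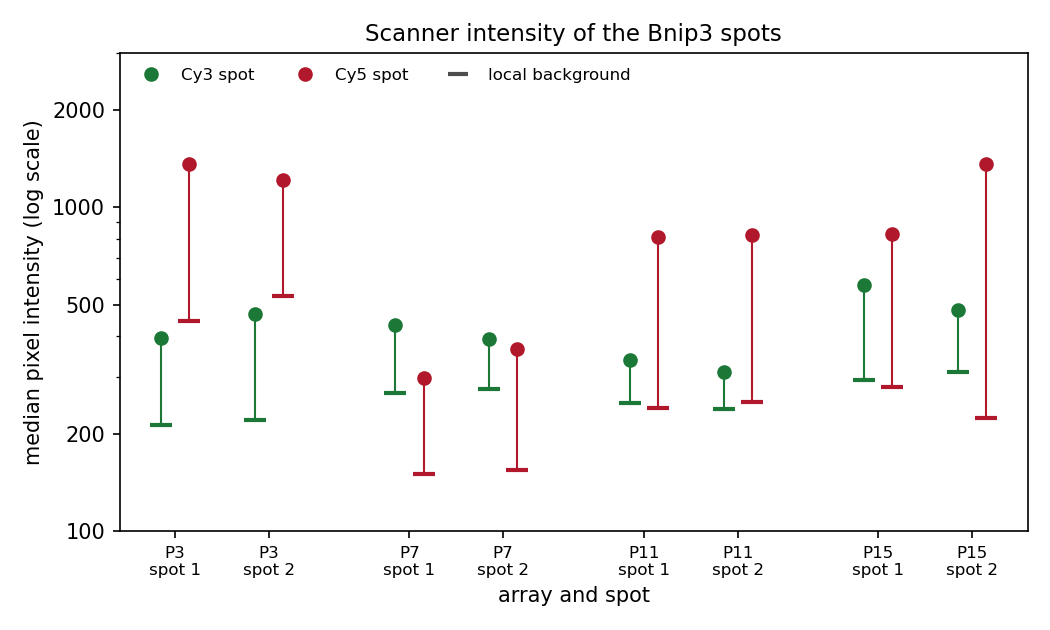
Median pixel intensity (log scale) of each Bnip3 spot in the Cy3 and Cy5 channels (circles) and of the local background around it (bars) on the 4 scanned polysomal arrays. Cy3 spots lie between 311 and 575 over backgrounds of 213 to 311, and Cy5 spots lie between 298 and 1366 over backgrounds of 150 to 531.

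Because the deposited values hold no background subtraction, the size of the polysomal difference depended on this step. With normexp background correction P3 moved from 0.78 to 0.16, P7 from 0.63 to 0.45, P11 from -0.28 to -0.13 and P15 from 0.06 to 0.20. The difference over these 4 arrays went from 0.81 as deposited to 0.27 (95% interval -0.72 to 1.25). P7 remained above both parental arrays, while P3 came to lie below P15. No scanner readings of the total RNA arrays were analysed here.

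The total RNA difference (-0.54) and the polysomal/total difference (0.58) of Bnip3 had opposite signs. Within a line the sum of both ratios sets Bnip3 in heavy polysomal RNA of induced cells over total RNA of uninduced cells. This holds if the induced total RNA was alike on both kinds of array. No polysomal RNA of uninduced cells was hybridised, so the sum is not a change of polysomal Bnip3 on induction. That sum was 0.78 in 3T3-tTA-eIF4E and 0.74 in 3T3-tTA, a difference of 0.04 (1.03-fold) beside a pooled SD of 0.31 between arrays. With the labelled reference it was 0.66 against 0.74, a difference of -0.09. Both terms of the sum belong to contrasts on which the study listed Bnip3, so the sum is given as a description, with no test.

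The other 4 clones that the study listed as repressed in total RNA also had positive parental means. The list was made from this contrast, so no test is given. They were Mpdu1, which takes part in the use of dolichol-linked mannose for glycosylation, Shisa5, a protein of the endoplasmic reticulum linked to p53-dependent apoptosis, Cyhr1, and Dcn, which encodes the matrix proteoglycan decorin. Their parental log2 means were 0.45 to 0.78 and their 3T3-tTA-eIF4E means -0.16 to 0.00, so that Bnip3 at 0.13 had the highest of the 5 in 3T3-tTA-eIF4E. Bnip3 was also the only clone of the 5 whose arrays did not overlap between the lines in total RNA. Over all rows, 94 (0.617%) had no overlap in this direction, and nothing is read from this since the clones were listed on this contrast. The SD of the parental arrays of Bnip3 (0.23) was below those of the others (0.45 to 0.82).

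In polysomal/total ratio these clones went both ways, and none passed the threshold (limma adjusted p 1.00 for each). The difference between the lines was 0.43 for Dcn, 0.29 for Cyhr1, -0.39 for Shisa5 and -0.51 for Mpdu1. Added to the total RNA difference, this left -0.18 for Dcn, -0.33 for Cyhr1, -1.10 for Mpdu1 and -1.23 for Shisa5. For Bnip3 it was 0.04. With the labelled reference the sum was -0.02 for Dcn and -0.09 for Bnip3, so the order of these clones depended on the reading of the reference.

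**Figure D5:**
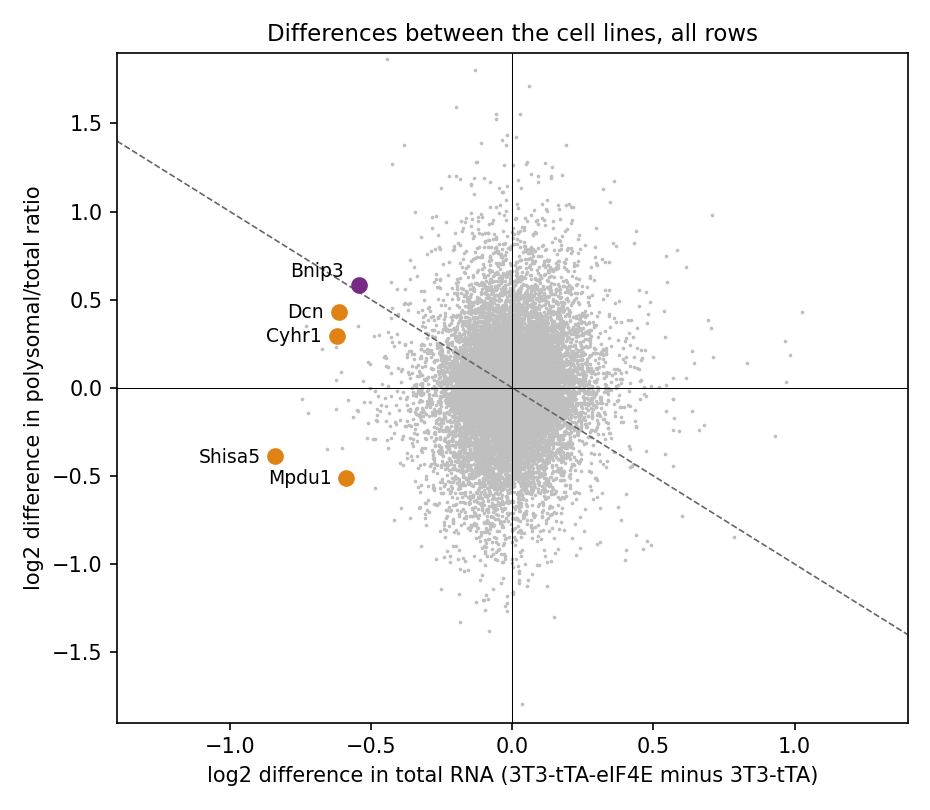
Difference between the lines (3T3-tTA-eIF4E minus 3T3-tTA) in log2 total RNA ratio (x axis) and in the log2 ratio of polysomal over total RNA (y axis) for all rows (grey), with the 5 clones listed as repressed in total RNA in colour. On the dashed line the differences cancel. Bnip3 (-0.54, 0.58) lies beside it, Dcn (-0.61, 0.43) and Cyhr1 (-0.62, 0.29) lie below it, and Shisa5 (-0.84, -0.39) and Mpdu1 (-0.59, -0.51) are further below it. 7 rows lie outside the axes.

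The genes that act around Bnip3 were looked up in lists of the hypoxia response, autophagy, the BCL2 family and the mitochondrial membranes. Only 570 rows could be named, since names came through the study's lists of changed clones. Most members therefore had no row that could be named, and may lie among the unnamed rows, and those that could be named were picked by the study for a difference on these same arrays. None passed the threshold for the polysomal/total difference (0 called in each list). The median over all rows was 0.01 for the polysomal/total difference and -0.01 for the total RNA difference.

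Of 59 hypoxia names 8 besides Bnip3 had a named row, 4 above and 4 below 0 in the polysomal/total difference (median -0.04). The higher ones were Mif, a secreted cytokine (0.72), Tfrc, the transferrin receptor (0.65), Rbx1, a RING subunit of the ubiquitin ligase that marks HIF for degradation (0.56), and Cp, the ferroxidase ceruloplasmin (0.43). The lower ones were Cul2, the cullin of the same ligase (-0.87), the glycolytic enzymes Pfkm (-0.63) and Pkm2 (-0.56), and Siah2, a ligase for the hydroxylases that modify HIF (-0.50). Their total RNA differences lay between -0.17 and 0.13. These rows had a name because the study picked them for a polysomal difference, and Bnip3 was on both of its lists.

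Of 36 autophagy names 3 others had a named row. The difference in polysomal/total ratio was 0.50 for Becn1, a subunit of the lipid kinase complex that starts autophagosomes, and 0.38 for Map1lc3b, an LC3 protein of the kind Bnip3 binds. It was -0.52 for Atg4c, a protease of this protein family. Of 22 BCL2 family names only Bik, a BH3-only member, had a named row besides Bnip3, at -0.42.

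The 7 named rows for mitochondrial import, membrane and DNA maintenance genes stood at a median polysomal/total difference of 0.61, and 5 of them were above 0. Over all 15247 rows, 7900 were above 0. The named rows were again picked by the study for a polysomal difference, so nothing is read from the size of the median. Tomm20, the import receptor of the outer membrane, had 3 clones, which disagreed (0.76, 0.72 and -0.48), so its direction is uncertain. Timm23, the channel of the inner membrane, was at 0.61, Gdap1 at 0.71 and Tfam, which packages mitochondrial DNA, at 0.51. Mpv17, an inner membrane protein, was at -0.60. Their total RNA differences ranged from -0.20 to 0.33.

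The rows most like Bnip3 across all 16 arrays, after removing each row's dye effect, reached a Pearson r of 0.75 to 0.76, where 99% of all rows were below 0.58. The first was Atp6v0a4, a subunit of the proton pump of acidic compartments (r = 0.76), with a total RNA difference of -0.14 and a polysomal/total difference of 0.44. The other 4 of the first 5 have no name here, with total RNA differences of -0.15 to -0.28 and polysomal/total differences of 0.24 to 0.97. Dcn came at rank 10 (r = 0.73). Arrays of different kinds and shared extractions enter this measure together, so it only describes the shape over these arrays, and with the dye effect kept the first 5 took ranks 4, 24, 1, 2 and 53.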

How the data were processed

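Bnip3, the comparison clones and the gene lists were chosen with earlier results of these data known. The authors deposited log2 Cy3/Cy5 ratios for each of the 2 duplicate spots, normalised with limma by whole-array lowess without background subtraction. They also deposited GenePix intensity readings, used here for 4 polysomal arrays. Row names did not match the values, so rows were named through the study's clone lists by the mean ratio to 6 digits (29 of 30 and 543 of 554 clones). Each ratio was turned by its labelled dyes and duplicate spots were averaged. Polysomal/total ratios were tested with limma 3.58.1 in R 4.3.3 across 15247 rows on extraction means. Which arrays share an extraction is not given, so the largest p over 4 assignments was adjusted (Benjamini-Hochberg), and rows were called at 1.3-fold and an adjusted p below 0.1. The fit was tested on simulated data. The simulated arrays were independent and had no dye effect, unlike the real ones, so that test does not show how the fit behaves on these arrays. Background correction used normexp with offset 50. Named genes were Bnip3, the other repressed clones, list members with a named row and, where they had a name, the 5 rows most correlated with Bnip3. Eif4e was added as a check of the transgene. The number of arrays limits the precision, and p-values measure the spread between 2 extractions per group.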

Additional observations from a re-analysis of the deposited data

How the results depend on the processing

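The Bnip3 polysomal/total difference stayed above 0 in all 19 alternatives run, between 0.27 (normexp, 4 scanned arrays) and 0.81 (the same arrays as deposited), and between 0.47 and 0.62 when single arrays were left out, where the value is that of the least favourable assignment. Its limma adjusted p ranged from 0.725 to 1.00, and 0 rows were called in any of them. The rows with an unadjusted limma p under 0.05 went from 150 to 406 with arrays as replicates and to 960 with duplicate spots as independent. The mean in 3T3-tTA-eIF4E (0.66) passed the threshold only with arrays as replicates (limma adjusted p 0.0292). Its highest value was 0.82 (Cy5 arrays only). On the scanned arrays it was 0.70 as deposited and 0.30 with normexp, the lowest value (95% interval -0.39 to 0.999). The parental mean of 0.07 turned negative on the Cy3 arrays (-0.081) and on the scanned arrays as deposited (-0.11), and was -0.042 to 0.099 in the fits that left out single arrays, again under the least favourable assignment; the cause was not tested. As plain means of the other 3 arrays, an alternative chosen after seeing the data, it was 0.058 without P9, 0.19 without P11, -0.034 without P13 and 0.078 without P15. The total RNA difference stayed between -0.64 and -0.46, and the difference of the sums between -0.10 and 0.18. No paired analysis was possible because the groups compared share no replicate number in the labels, whose titles count spots in sequence, except by pairing arrays of the same dye in each of 4 ways, with duplicate spots as independent, which gave the same difference of 0.58 at a limma adjusted p of 0.725. The dim spots, with Cy3 at 1.31 to 2.13 times background, limit the precision of the polysomal values.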
